A study of Mus musculus with 4 samples.

Results

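Spots with the highest and the lowest share of RNA from 8 mitotic and proliferation genes were compared within sections of a mouse tumor. Spatial gene expression had been measured with Visium: polyadenylated RNA leaves a tissue section for the printed spots beneath it, where it takes up a position barcode and a unique molecular identifier (UMI) that lets each molecule be counted once. For every spot with at least 5000 UMIs, the UMIs of Mki67, Top2a, Ccnb1, Cdk1, Birc5, Cenpf, Aurka and Plk1 were summed and divided by the spot's total, and this 8-gene share is given in counts per 1000000 UMIs (CPM). Spots were chosen by this measured share: the top 10% of a section's spots are called highly proliferating here and the lowest 10% slow. There were 1182 spots in each class among 11798 spots with enough UMIs, out of 11947 under tissue. CC075F1 replicates 1 and 2 and CC080F1 replicates 1 and 2 gave 266, 326, 277 and 313 spots to each class, and values for the 4 sections are listed in that order throughout.

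Each section came from a different MC38 tumor. MC38 is a colon carcinoma line of C57BL/6 origin, and a 0.5-million-cell inoculum had been placed under the skin of female mice aged 8 to 12 weeks. The hosts were F1 mice with the genotype C57BL/6J x CC075/UncJ (called CC075F1, 2 sections) or C57BL/6J x CC080/TauUncJ (called CC080F1, 2 sections), the second parent of each being a Collaborative Cross strain. All hosts had received 1 intraperitoneal dose of 200 µg of the isotype control antibody 2A3 once the tumor measured 75 to 110 mm3, and the tissue was collected after 48 hours, so every tumor here was without checkpoint blockade. The tumors model a single transplanted line in 2 host genotypes, and the sequence reads had been aligned to a C57BL/6J reference although the hosts carry other alleles.

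Dividing cells copy their DNA in S phase and separate it in mitosis, and many genes needed for these steps are transcribed mainly in cycling cells. Activation of the E2F factors at the start of S phase drives replication genes such as the MCM helicase subunits, while mitotic genes peak later, in G2 and M phase. In a solid tumor, cells far from perfused vessels can become hypoxic, and hypoxia-inducible factors then raise glycolytic enzymes, glucose transporters and angiogenic factors. A spot covers several cells, so a spot's share is a mixture of tumor and host cells.

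The sections held between 82594649 and 146460975 UMIs. Since the 8-gene share was used to choose the spots, its values are a description. The pooled share was 1814, 1555, 1851 and 1741 CPM in the highly proliferating spots and 645, 446, 833 and 496 in the slow spots, a ratio of 2.81, 3.49, 2.22 and 3.51. In CC075F1 replicate 1 the lowest highly proliferating spot had 1638.5 CPM and the nearest spot outside the class 1637.4, so the classes are the ends of a continuous range. A spot had a median of only 36 to 44 UMIs of the 8 genes, and counting noise alone amounted to 40.3%, 25.6%, 52.0% and 31.1% of the variance of the share. The classes are therefore least sharply drawn in CC080F1 replicate 1. Just 2 slow spots, both in CC075F1 replicate 2, had no UMI of the 8 genes.

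The classes did not separate by depth or by position from the edge in a uniform way. The median total per spot was 28301.5, 31883.5, 29729 and 35551 UMIs in highly proliferating spots and 27819, 40959.5, 31691 and 25690 in slow spots. The log2 ratio of these medians averaged 0.01 ± 0.35 (SD, n = 4 sections; two-sided exact sign-flip permutation test p = 0.875), and the total is the denominator of the share, so this is no independent measure. The median distance from the nearest position off tissue was 5, 9, 4 and 9 grid steps for highly proliferating spots and 10, 9, 5 and 7 for slow spots (exact sign-flip permutation test p = 0.75, n = 4). With 4 sections this test cannot give a p below 0.125. The share of UMIs from 109 host cell markers had medians of 1.14%, 0.94%, 1.22% and 1.09% in highly proliferating and 1.28%, 0.79%, 1.08% and 1.00% in slow spots, and its order differed between sections. In CC075F1 replicate 2, 23 slow spots and 1 highly proliferating spot had over 0.5% of their UMIs from muscle, skin and fat markers, and results that rest on these spots are given without that section. With such spots left out of all sections there were 3826 calls in the comparison below. The median mitochondrial share of a spot's UMIs was 1.79%, 1.01%, 1.56% and 1.69% in highly proliferating and 1.82%, 1.55%, 2.10% and 1.42% in slow spots. With mitochondrial UMIs left out of the total there were 3774 calls.

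**Figure D1:**
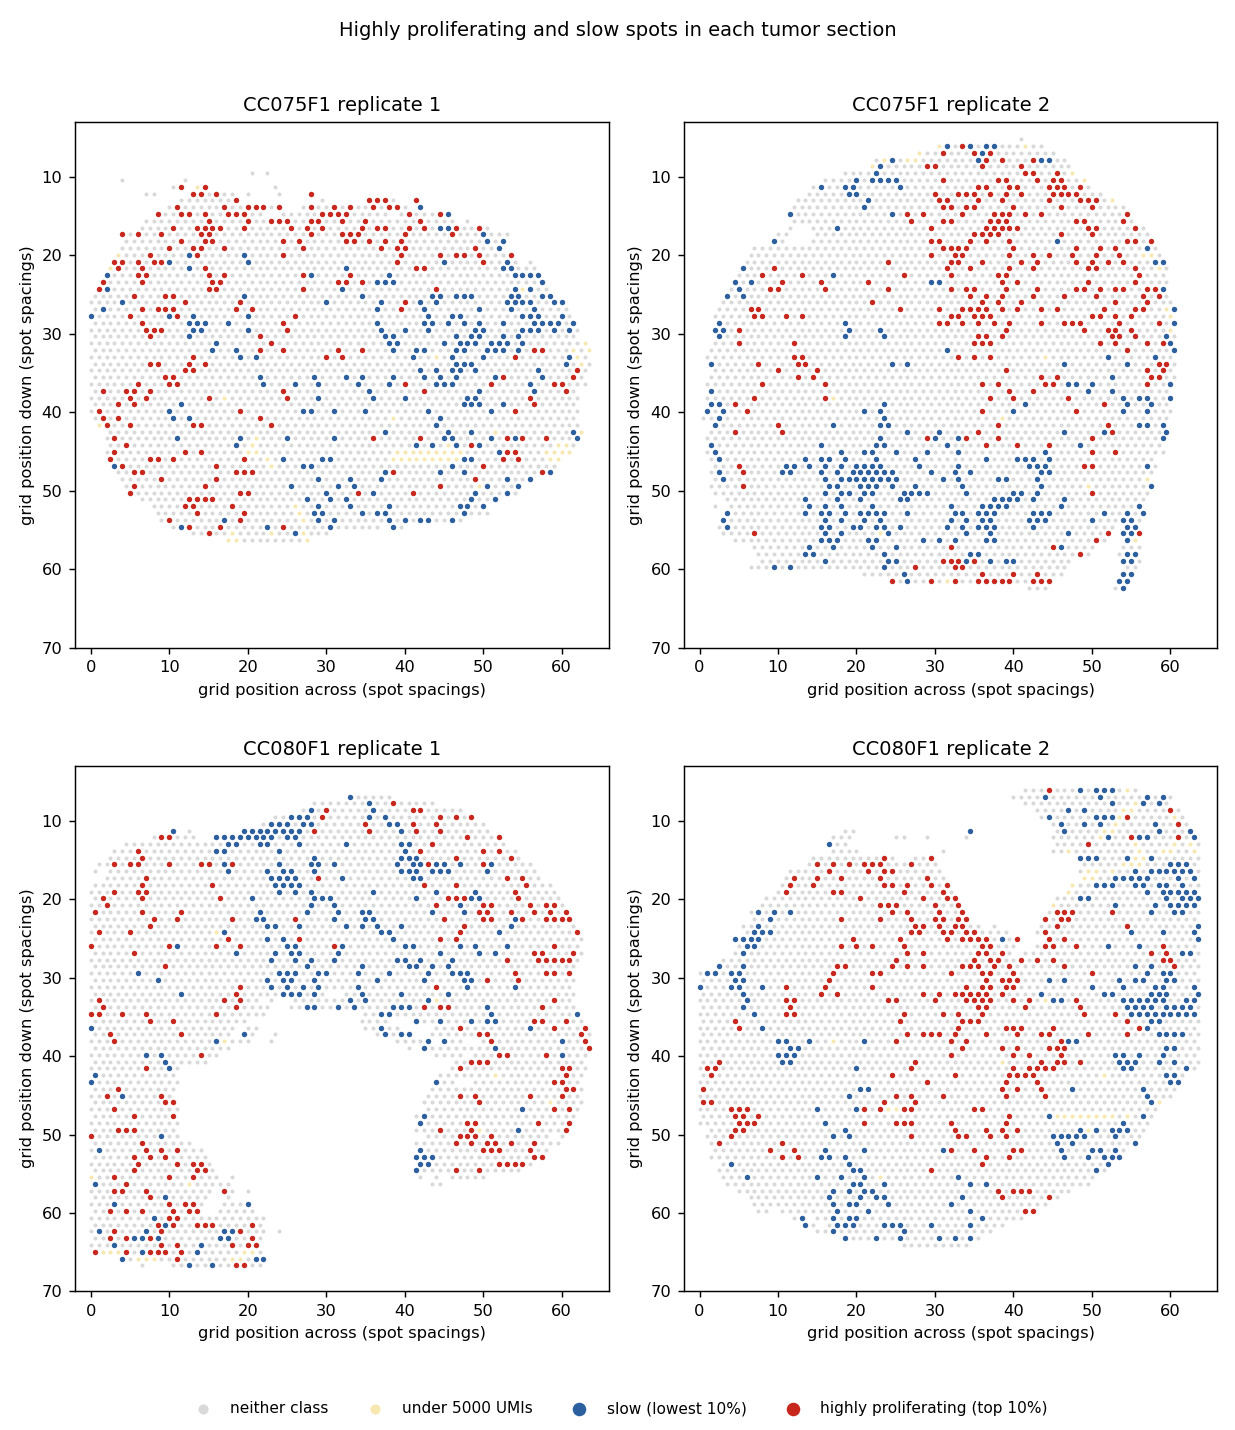
Position of the highly proliferating spots (red) and slow spots (blue) in each of the 4 sections, with spots of neither class in gray and spots under 5000 UMIs in yellow. Both axes are grid positions in units of the spacing between spots. Each class holds 266, 326, 277 and 313 spots. Many spots of a class touch another of it, while others stand alone. The largest highly proliferating group holds 61 touching spots in CC080F1 replicate 2.

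Spots of the same class lay next to each other more often than their share of all spots. For each spot of a class, every touching spot with at least 5000 UMIs was counted, so a spot could be counted more than once. Around highly proliferating spots, 21.2%, 24.9%, 19.3% and 27.9% of these counts were highly proliferating spots. Slow spots made up 2.88%, 1.72%, 3.34% and 0.60% of them, where each class made up 10.0% of the spots. Around slow spots, 24.9%, 33.1%, 30.6% and 34.1% of the counts were slow spots. The largest run of touching highly proliferating spots held 13, 30, 8 and 61 spots and the largest run of slow spots 24, 49, 34 and 41, as the map of the spots shows. Runs of 10 or more spots held 9.40%, 22.1%, 0% and 33.9% of the highly proliferating spots, and 18%, 33.1%, 26% and 44.1% of the slow spots. Single spots that touched no other of their class made up 31.6%, 28.8%, 34.3% and 22.7% of the highly proliferating spots. Among the slow spots they made up 28.2%, 19.6%, 23.8% and 21.4%.

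The surroundings were measured in spots of neither class, which the same share had placed between the ends. In spots 1 step from a highly proliferating spot the 8-gene share was 1289, 1091, 1376 and 1266 CPM, and in spots 1 step from a slow spot 1084, 824, 1264 and 888 CPM. It was higher around highly proliferating spots in 4 of 4 sections, by 0.32 ± 0.17 on the log2 scale (SD, n = 4), which is a description, since the same share placed every spot. At 6 steps the order had turned, with 1046, 828, 1229 and 916 CPM at that distance from the nearest highly proliferating spot and 1320, 1101, 1391 and 1268 from the nearest slow spot. The gradient was shallowest in CC080F1 replicate 1.

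**Figure D2:**
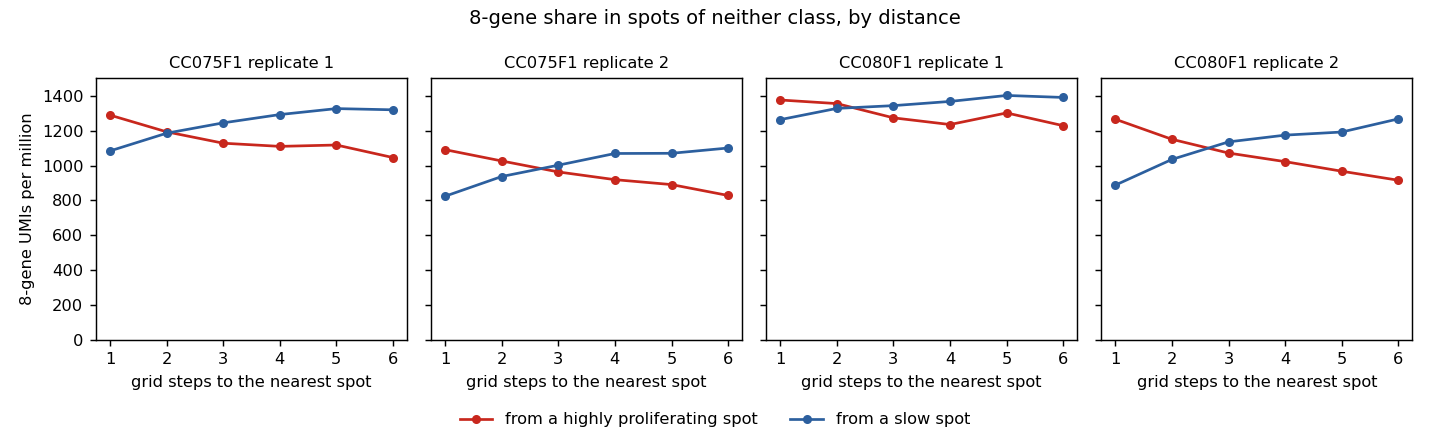
The 8-gene share (CPM, y axis) of spots of neither class against their distance in grid steps from the nearest highly proliferating spot (red) or the nearest slow spot (blue), 1 panel per section. At 1 step the red values (1289, 1091, 1376 and 1266) lie above the blue values (1084, 824, 1264 and 888), and at 6 steps they lie below them.

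For genes outside the rule, UMIs were summed over the spots of a class in each section and the classes were compared within sections in edgeR. All fold changes below are highly proliferating over slow spots on the log2 scale after TMM scaling, which sets the typical gene near 0, and adjusted p-values are from edgeR's quasi-likelihood test with Benjamini-Hochberg adjustment over all 12012 genes tested. Of these, 3702 were called, 30.8% of those tested, with 1774 higher (14.8%) and 1928 lower (16.1%) in highly proliferating spots, and 5061 had an unadjusted p under 0.05. Levels are CPM, the UMIs of a gene per 1000000 of the sum's total, and on that scale the median gene stood 0.22 (log2) higher in highly proliferating spots, with 4667 genes called higher and 822 lower, so 85.0% of calls were higher instead of 47.9%. A lower level of ribosomal protein mRNAs, which took up a large share of all UMIs, accompanied this offset and is described below. Of the called genes, 3507 had the same direction in 4 of 4 sections. That count is a description, since a call across these sections itself favors genes with a shared direction. Without CC075F1 replicate 2 there were 2473 calls (1067 higher) and without CC080F1 replicate 2 there were 2228 (966 higher, 1262 lower). The pairing within sections mattered to the count: 304 genes (109 higher, 195 lower) were called when the sections were left unpaired.

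**Figure D3:**
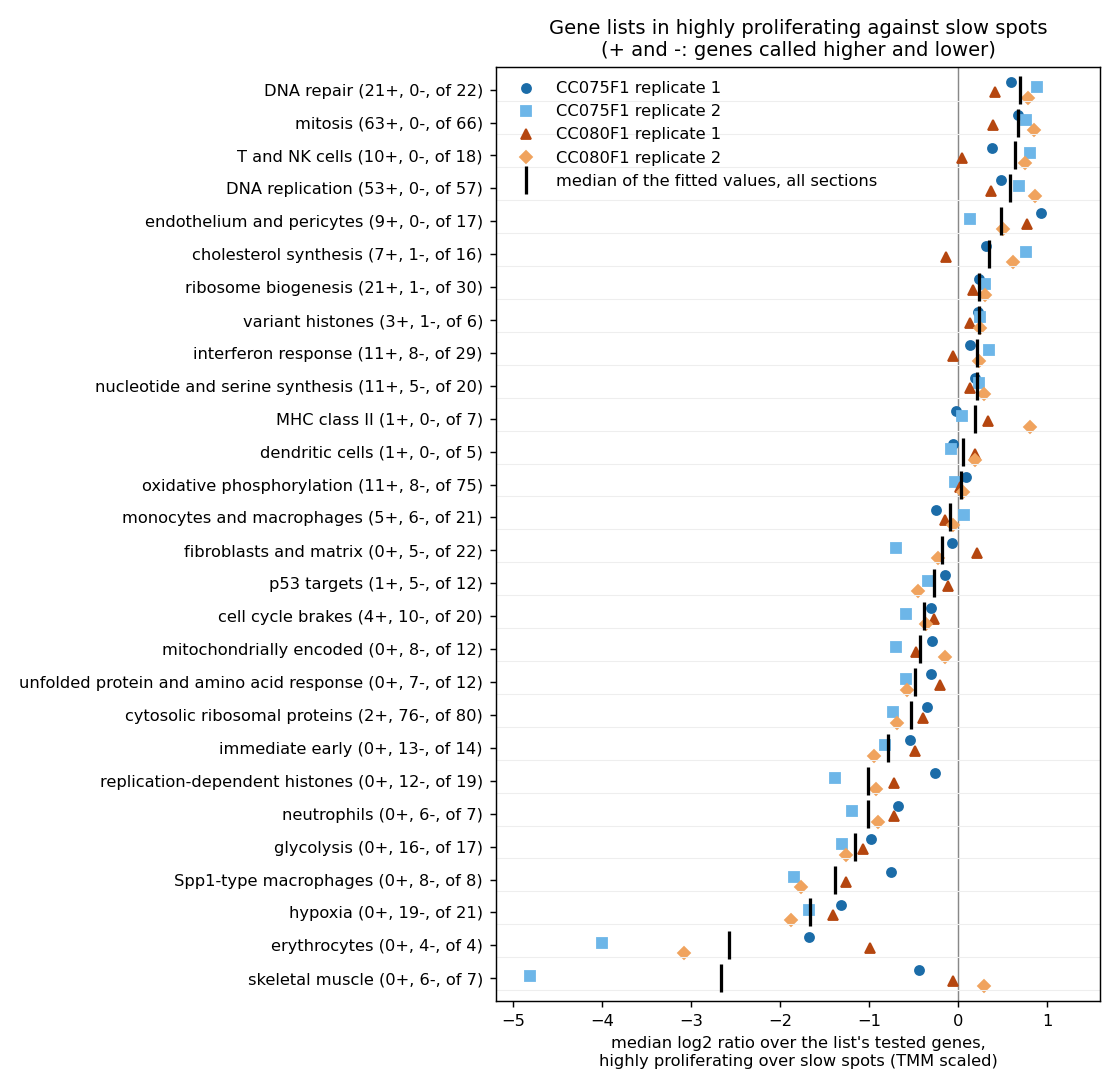
Median log2 ratio of highly proliferating over slow spots (x axis, TMM scale) over the tested genes of each list with 4 or more tested genes, shown for the 4 sections (colored symbols) and for the fitted values (black bars). Labels give how many genes of a list were called higher (+) and lower (-) of those tested. The DNA repair, mitosis, T and NK, and DNA replication medians (0.70, 0.68, 0.63 and 0.58) lie at the top, and the hypoxia median (-1.66) lies below 0 in all 4 sections.

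Each of the 8 genes could be tested only with classes redrawn from the other 7. Every gene was then higher in the highly proliferating spots, in 4 of 4 sections, where 12.9% (classes without Birc5) to 15.1% (classes without Top2a) of all genes were called higher (14.4%, 15%, 14.9%, 15%, 14.2% and 14.7% with the classes drawn without Mki67, Ccnb1, Cdk1, Cenpf, Aurka and Plk1). Mki67, which encodes a coat protein of mitotic chromosomes and is the usual marker of cycling cells (chr7:135689784-135716361, GRCm38), stood at 193, 123, 203 and 193 CPM in highly proliferating and 103, 43.1, 124 and 84.1 in slow spots. Within every section the highly proliferating level was the higher, although the ranges touch across sections because CC075F1 replicate 2 was low in both classes. The fold change was 0.87 ± 0.08 (log2 ± SE; edgeR adjusted p = 5.55e-05). Plk1, the polo-like kinase of mitotic entry, changed by 0.90 ± 0.11 (edgeR adjusted p = 0.000169), and Cdk1, the catalytic partner of cyclin B, by 0.60 ± 0.07 (edgeR adjusted p = 7.59e-05), the smallest change of the 8.

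Genes of DNA replication were higher in highly proliferating spots almost throughout the list. Of 57 tested, 53 rose and none fell, with a median log2 fold change of 0.58 against 0.00 over all genes. Tk1, a thymidine kinase of S phase, had 202, 215, 237 and 219 CPM in highly proliferating and 107, 83.3, 140.0 and 63.8 in slow spots. The classes did not overlap, and Tk1 changed by 0.97 ± 0.11 (edgeR adjusted p = 0.00011). Rrm2, the regulated subunit of ribonucleotide reductase, had 152, 144, 181 and 178 against 75.6, 48.0, 109 and 61.5 CPM, again without overlap (0.98 ± 0.10; edgeR adjusted p = 4.19e-05). Ung, which removes uracil from DNA, rose by 1.01 ± 0.11 and Clspn, a checkpoint mediator at the fork, by 0.95 ± 0.16. Smaller rises were measured for Mcm5, a subunit of the MCM helicase (0.78 ± 0.09), Pcna, the sliding clamp (0.54 ± 0.09), and the E cyclins Ccne1 and Ccne2 (0.51 ± 0.08 and 0.51 ± 0.11), which drive entry into S phase.

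The 4 replication genes not called were E2f1 (0.03 ± 0.07; edgeR adjusted p = 0.795), Rpa3, Gins3 and Pold2. E2f1 stood at 51.2, 44.0, 66.5 and 61.8 CPM in highly proliferating and 49.1, 33.1, 62.6 and 45.4 in slow spots. On the TMM scale it was higher in only 2 of 4 sections. Scaled by library size alone, all 57 replication genes were called higher, these 4 among them (median 0.81). The G1 cyclin Ccnd1 rose by 0.39 ± 0.08 (edgeR adjusted p = 0.00305), with 764, 537, 757 and 752 against 592, 284, 598 and 419 CPM.

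Mitotic genes outside the rule rose as a list too: 63 of 66 tested were higher, none was lower and the median was 0.68. Cenpe, a kinesin that carries chromosomes to the spindle equator, had 57.3, 39.7, 59.6 and 62.0 CPM in highly proliferating and 30.3, 12.9, 33.5 and 21.6 in slow spots, without overlap (0.99 ± 0.10; edgeR adjusted p = 4.98e-05). Ccnf, the F-box protein cyclin F, rose by 0.98 ± 0.12 and Kif20a and Nuf2, a cytokinesis kinesin and a kinetochore subunit, by 0.93 ± 0.12 and 0.91 ± 0.14. Foxm1, the transcription factor that switches on many G2 and M phase genes, rose by 0.77 ± 0.10 (edgeR adjusted p = 0.000233). The 3 mitotic genes not called were Psrc1, Pttg1 and G2e3. Among genes of any list or none, Pif1, a DNA helicase, had the largest rise of the cell cycle genes named here, 1.21 ± 0.13, with 27.5, 16.4, 24.0 and 25.9 against 8.76, 5.11, 13.2 and 8.32 CPM. The kinase gene Melk and the PCNA-binding Pclaf rose by 1.00 ± 0.12 and 0.98 ± 0.12, and the chromatin and microtubule genes H2afz, Hmgb2, Hmgb1, Stmn1 and Tubb5 by 0.45, 0.47, 0.36, 0.54 and 0.31.

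The promoters of these mitotic genes share a short element that the rule did not use. The cell cycle genes homology region, TTTGAA, is bound by the MuvB complex, which represses such genes in resting cells and activates them in G2 and M phase. TTTGAA was found on either strand in the RefSeq window from 250 bases before to 50 bases after the gene start in 38 of 55 mitotic genes with a window (69.1%), in 4 of 44 replication genes (9.09%), and in 1125 of 9466 tested genes (11.9%). CCAAT, the core of the NF-Y site and a motif that does not overlap TTTGAA in its letters, was held by 72.7% of the mitotic, 59.1% of the replication and 39.2% of all windows. A match is a description of the sequence only. Below are 120 bases around the element, from RefSeq on GRCm38.p6, for the 4 mitosis or replication genes with the smallest p that hold it, with TTTGAA in capitals on the strand of the gene.
Cdca8 (chr4:124936868-124936987, minus strand): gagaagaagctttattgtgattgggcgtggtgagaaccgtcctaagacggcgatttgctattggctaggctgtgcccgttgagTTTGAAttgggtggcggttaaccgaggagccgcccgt
Ckap2 (chr8:22185858-22185977, minus strand): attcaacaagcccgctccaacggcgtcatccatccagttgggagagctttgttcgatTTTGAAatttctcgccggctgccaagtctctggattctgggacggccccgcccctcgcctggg
Spc25 (chr2:69206164-69206283, minus strand): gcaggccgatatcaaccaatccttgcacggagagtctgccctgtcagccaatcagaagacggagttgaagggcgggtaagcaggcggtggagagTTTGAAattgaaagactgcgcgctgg
Kif4 (chrX:100625995-100626114, plus strand): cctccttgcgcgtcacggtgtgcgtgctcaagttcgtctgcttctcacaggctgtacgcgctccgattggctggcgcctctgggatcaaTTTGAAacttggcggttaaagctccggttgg

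All 4 of these genes were higher in highly proliferating spots in 4 of 4 sections. Cdca8, a subunit of the chromosomal passenger complex with Aurora B, rose by 0.78 ± 0.08, and Spc25, a kinetochore subunit, by 0.85 ± 0.09. Ckap2, a spindle protein, rose by 0.74 ± 0.08 and the chromokinesin Kif4 by 0.75 ± 0.08.

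Genes that repair or guard replicating DNA followed the same direction. Of 22 tested, 21 rose and none fell (median 0.70). Rad54l, a motor protein of homologous recombination, had 17.4, 12.4, 18 and 20.1 CPM in highly proliferating and 8.63, 5.18, 9.33 and 6.13 in slow spots, without overlap (1.00 ± 0.13; edgeR adjusted p = 0.000195). The exonuclease Exo1 rose by 0.89 ± 0.15. Rad54b, at a low level, was the gene not called (0.68).

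Genes that hold back the cycle went both ways. Of 20 brakes tested, 10 were lower and 4 higher in highly proliferating spots (median -0.38). Scaled by library size alone, 8 were lower and 5 higher (median -0.16). Cdkn1a, the p21 inhibitor of cyclin-dependent kinases, had 14.4, 13.7, 19.0 and 14.2 CPM in highly proliferating and 29.7, 27.1, 46.4 and 34.0 in slow spots, without overlap (-1.38 ± 0.08; edgeR adjusted p = 8.11e-07). The growth arrest gene Gadd45a fell by 2.00 ± 0.21 on the log2 scale, Ccng2, an atypical cyclin, by 1.21 ± 0.13, and the antiproliferative Btg1 by 1.16 ± 0.11. The 4 brakes that rose were Gadd45g, Cdkn2d, Cdkn2c and Rbl1 (0.25, 0.42, 0.59 and 0.67); the last is the pocket protein p107, itself a target of E2F. Of 12 p53 targets beside Cdkn1a, 5 were lower and 1 higher (median -0.27), Sesn2 at -1.06 ± 0.11 and Eda2r at -0.79 ± 0.12 being the largest changes. The higher one was Aen (0.20). With library size alone, 2 of the 12 p53 targets were called higher and 3 lower (median -0.04).

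Histone genes went in opposite directions by class. Replication-dependent histones, most of whose mRNAs carry no poly(A) tail and are thus poorly captured by this assay, were 67 on the list, of which 19 had enough UMIs to be tested. Of these, 12 were lower in highly proliferating spots and none higher, with a median of -1.01. The section medians were uneven, at -0.26, -1.38, -0.72 and -0.92. Under library size alone 10 were lower and 2 higher (median -0.78). Within strata of the hypoxia list's share, drawn as described below, 4 of 17 were lower and 1 higher (median -0.37). Hist1h2bc had 39.1, 28.6, 38.3 and 43.6 CPM in highly proliferating and 59.0, 102, 69.1 and 131 in slow spots, without overlap (-1.48 ± 0.19; edgeR adjusted p = 0.000176). Members of this family share sequence, so reads may be divided among them. Of 6 variant histone genes, which are polyadenylated, H2afz, H2afx and H2afy rose (0.45 ± 0.08, 0.37 ± 0.09 and 0.31 ± 0.07). H3f3b was called lower at -0.21 ± 0.07, but stood at 0.01 when scaled by library size alone.

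Genes for making ribosomes and genes for the ribosome's own proteins moved apart. Of 30 ribosome biogenesis genes, 21 rose and 1 fell (median 0.24), with Noc4l, Polr1b, Nop16 and Bop1 at 0.52 ± 0.07, 0.46 ± 0.08, 0.42 ± 0.06 and 0.39 ± 0.06. The gene that fell was Myc itself, the transcription factor that drives growth genes, at -0.33 ± 0.06 (edgeR adjusted p = 0.00203), a call that was lost with library size alone (-0.10; edgeR adjusted p = 0.3). Of 80 cytosolic ribosomal protein genes, 76 were lower and 2 higher (median -0.53). Together the 83 on that list held 260518, 323210, 236197 and 266805 CPM in highly proliferating and 303031, 417604, 278125 and 349756 in slow spots. The sum was lower in highly proliferating spots in each section, and CC075F1 replicate 2 was highest in both classes. Rpl13a, of the large subunit, changed by -0.80 ± 0.11 (edgeR adjusted p = 0.000267). The 2 that rose were the paralogs Rps27l and Rpl7l1 (0.26 and 0.40). On the library size scale 69 of the 80 were still lower. Many ribosomal protein genes have processed pseudogenes, to which reads could also have been assigned.

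Of 20 enzymes of nucleotide and serine synthesis tested, 11 rose and 5 fell (median 0.21). The purine enzymes Ppat and Gart rose by 0.51 ± 0.10 and 0.48 ± 0.07 and the pyrimidine enzyme Umps by 0.45 ± 0.08. The 5 that fell were Mthfd1l, Mthfd2, Psph, Psat1 and Impdh1 (-0.42, -0.41, -0.36, -0.31 and -0.21), the first 4 of which belong to mitochondrial one-carbon metabolism and serine synthesis; with library size alone none of the list was called lower. Genes of cholesterol and fatty acid synthesis rose in 7 of 16 cases and fell in 1 (median 0.34; 15 higher and none lower with library size alone), with Idi1 and Fasn at 0.64 ± 0.17 and 0.59 ± 0.12. Their section medians were 0.32, 0.77, -0.14 and 0.62, so CC080F1 replicate 1 had the lowest. The Idi1 log2 fold change lost its call without CC075F1 replicate 1 or 2 or CC080F1 replicate 2 (edgeR adjusted p = 0.0597, 0.0754 and 0.069). Nuclear genes of oxidative phosphorylation centered on 0 (11 rose and 8 fell of 75, median 0.03; 50 rose and 1 fell with library size alone). Of 12 mitochondrially encoded genes, 8 were lower and none higher (median -0.43), mt-Co1 at -0.82 ± 0.12. Library size alone left 5 lower and none higher (median -0.20). Spots ranked by DNA replication genes gave 7 lower and 2 higher (median -0.38). The summed level of the list did not fall in CC080F1 replicate 2, with 18204 CPM in highly proliferating and 18197 in slow spots.

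Genes that respond to low oxygen were higher in slow spots. Of 21 hypoxia genes, 19 were lower in highly proliferating spots and none higher (median -1.66). Bnip3, a mitophagy receptor induced by hypoxia (chr7:138890836-138909519, GRCm38), had 57.3, 39.2, 45.8 and 40.8 CPM in highly proliferating and 318, 373, 316 and 414 in slow spots. Every slow value lay far above every highly proliferating value, and the fit put it 9.16-fold lower (-3.20 ± 0.15; edgeR adjusted p = 1.04e-07). Car9, carbonic anhydrase 9, had 3.30, 0.969, 1.53 and 1.39 against 23.0, 14.2, 13.4 and 22.6 CPM, also without overlap (-3.65 ± 0.20). Ero1l, an oxidase of the endoplasmic reticulum, and Ankrd37 fell by 2.87 ± 0.13 and 2.74 ± 0.13 on the log2 scale. Vegfa, the main angiogenic factor, had 76.7, 42.9, 93.0 and 61.4 against 150.0, 80.0, 210.4 and 168 CPM and was lower within each section (-1.35 ± 0.09; edgeR adjusted p = 1.14e-06). The 2 not called were Angptl4 and Pfkfb4 (-0.28 and 0.17).

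Glycolysis fell with hypoxia: 16 of 17 genes were lower and none higher (median -1.16). Slc2a1, the glucose transporter GLUT1, had 33.9, 35.7, 49.9 and 36.6 CPM in highly proliferating and 194, 248, 293 and 376 in slow spots (-3.05 ± 0.13; edgeR adjusted p = 8.7e-08). The hexokinase Hk2, the aldolase Aldoa and the lactate exporter Slc16a3 changed by -1.72 ± 0.14, -1.66 ± 0.08 and -1.40 ± 0.07. Pfkm, the muscle form of phosphofructokinase, was the gene not called (-0.10).

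The letters ACGTG, the core of the hypoxia response element, were searched after the fall of these genes had been seen. They occurred on either strand in 10 of 17 hypoxia windows (58.8%), in 9 of 17 glycolysis windows (52.9%) and in 2468 of 9466 tested genes (26.1%), over the same RefSeq windows. The 3 hypoxia genes with the smallest p that hold them are printed to show the sequence, with ACGTG or its complement in capitals; in Bnip3 both strands match in an overlapping palindrome.
P4ha2 (chr11:54100788-54100907, plus strand): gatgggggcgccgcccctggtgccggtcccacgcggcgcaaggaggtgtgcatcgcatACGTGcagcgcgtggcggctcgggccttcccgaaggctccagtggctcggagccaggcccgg
Bnip3 (chr7:138909552-138909671, minus strand): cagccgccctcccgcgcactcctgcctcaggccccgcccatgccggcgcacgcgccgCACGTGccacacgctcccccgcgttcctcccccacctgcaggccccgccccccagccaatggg
Ankrd37 (chr8:45999981-46000100, minus strand): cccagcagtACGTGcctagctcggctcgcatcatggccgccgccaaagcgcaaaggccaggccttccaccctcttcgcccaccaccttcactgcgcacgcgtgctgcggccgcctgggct

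P4ha2, a collagen prolyl hydroxylase, was called lower in highly proliferating spots (-2.5 ± 0.10 on the log2 scale), with no section above 11.8 CPM there and none below 31.5 in slow spots.

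Stress genes were also higher in slow spots. Of 14 immediate early and heat shock genes, 13 were lower in highly proliferating spots and none higher (median -0.79). On the library size scale 9 of the 14 were lower and none higher (median -0.56). Hspa1a, an inducible HSP70, showed the largest change of any named gene. It had 0.660, 0.264, 0.587 and 0.926 CPM in highly proliferating and 19.7, 34.4, 4.26 and 49.9 in slow spots, a 56.0-fold difference in the fit (-5.81 ± 0.29; edgeR adjusted p = 1.39e-07). The highly proliferating levels lay near the floor of the counts, so the size of this fold change rests on few UMIs there. Slow spots of CC080F1 replicate 1 were lower than those of the other sections. The nearly identical neighbor Hspa1b fell by 3.83 ± 0.33, and counts could be divided between the pair. The stress factor Atf3 had 4.36, 4.58, 3.64 and 4.07 against 28.2, 32.0, 25.8 and 31.8 CPM (-3.07 ± 0.11; edgeR adjusted p = 1.93e-08). Of 12 genes of the unfolded protein and amino acid response, 7 were lower and none higher (median -0.48), led by Trib3, Ddit3 and Chac1 at -2.25 ± 0.08, -2.10 ± 0.12 and -2.02 ± 0.12, targets of the factor ATF4. With library size alone, 2 of these 12 response genes were called higher and 6 lower (median -0.26). Among the largest falls outside all lists were Cox6a2, an isoform of a cytochrome c oxidase subunit, and Angptl6 (-2.71 ± 0.14 and -2.58 ± 0.19).

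**Figure D4:**
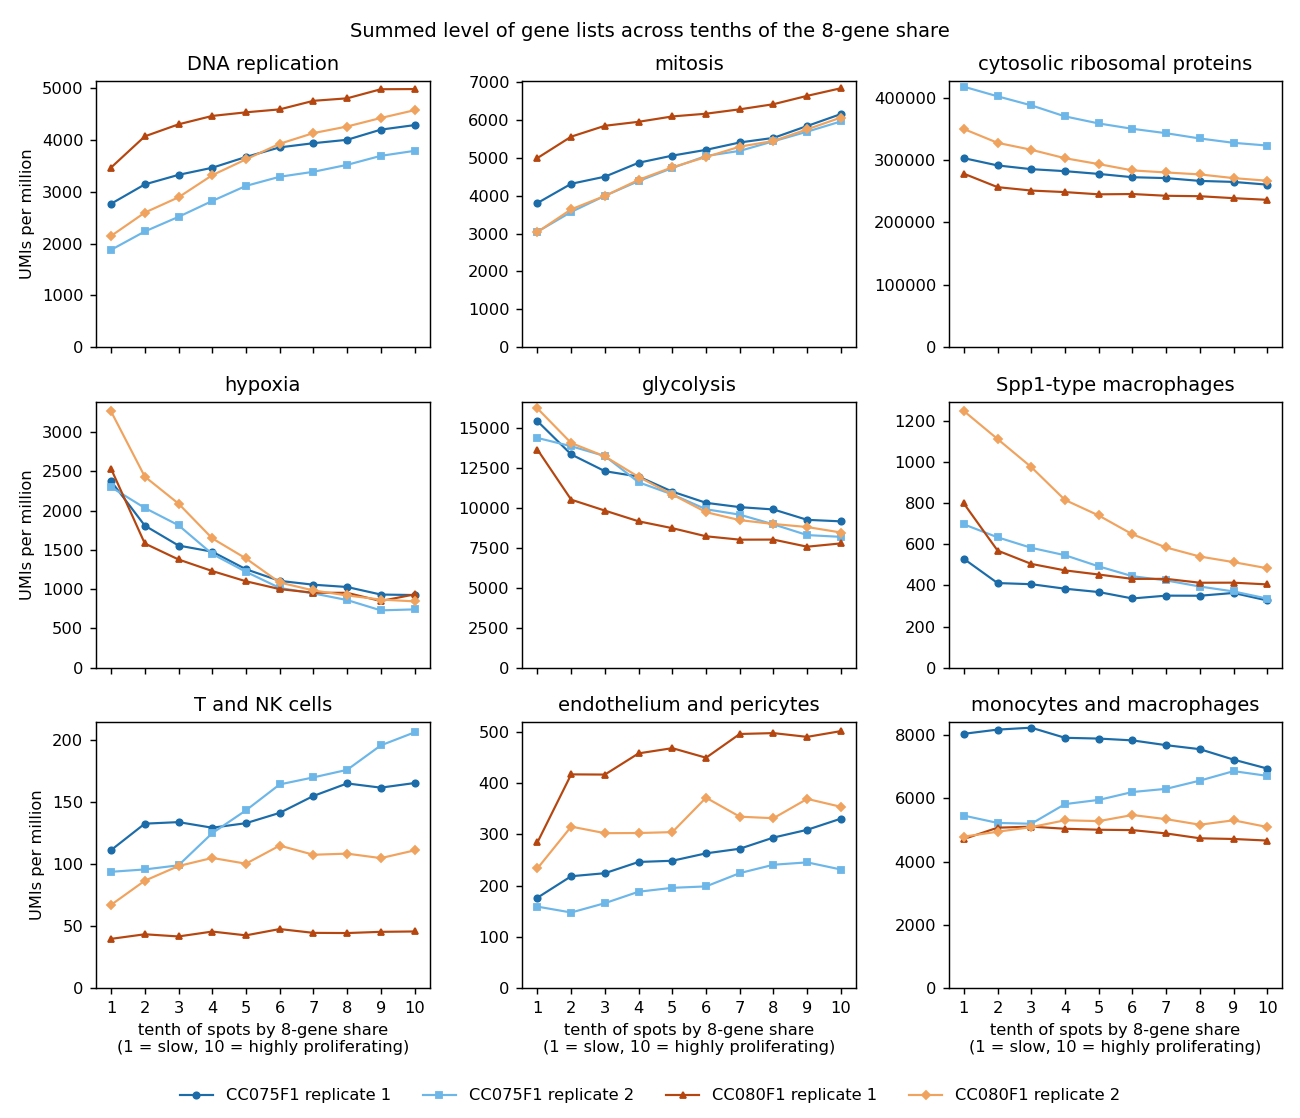
Summed level of 9 gene lists (CPM of the spots' total, y axes from 0) across 10 equal groups of a section's spots ordered by the 8-gene share (x axis, 1 = slow, 10 = highly proliferating), with 1 line per section. DNA replication and mitosis climb in all 4 sections. Hypoxia goes from 2376, 2300, 2534 and 3265 in the slow spots to 925, 742, 934 and 845 in the highly proliferating spots.

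Markers of host cells differed by cell type. In spots, fewer cells of a type and less RNA per cell cannot be told apart. The Spp1-type macrophage list, made of genes seen in macrophages of hypoxic and necrotic tumor areas, was lower in highly proliferating spots for 8 of 8 genes (median -1.38). Spp1, osteopontin, had 121, 119, 147 and 239 CPM in highly proliferating and 127, 331, 208 and 654 in slow spots. It was lower within each section, and least so in CC075F1 replicate 1 (-1.14 ± 0.21; edgeR adjusted p = 0.00209). Hmox1, a heme oxygenase, fell by 2.53 ± 0.10 on the log2 scale, Arg1, arginase 1, by 1.94 ± 0.17 and Mmp12, macrophage elastase, by 2.61 ± 0.42. Of 7 neutrophil genes, 6 were lower and none higher (median -1.01), with Clec4d at -1.44 ± 0.15 and Mmp9 at -0.45 ± 0.08. Several of these genes can be expressed by MC38 cells or by macrophages as well.

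General macrophage markers went both ways. Of 21 monocyte and macrophage genes, 5 rose and 6 fell, and the median was -0.10 (0.13 with library size alone). The complement gene C1qa had 656, 714, 425 and 529 CPM against 683, 555, 389 and 424 (-0.04 ± 0.06; edgeR adjusted p = 0.684), and Lyz2 changed by -0.12 ± 0.07 (edgeR adjusted p = 0.207). Ccr2, the chemokine receptor of incoming monocytes, rose by 0.73 ± 0.10, while Cd14, Apoe and F13a1 fell by 0.96 ± 0.08, 0.64 ± 0.08 and 1.48 ± 0.14 on the log2 scale. Ptprc, which encodes the pan-leukocyte antigen CD45, had 0.10 ± 0.08 (edgeR adjusted p = 0.416).

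Vessel markers were higher in highly proliferating spots. Of 17 endothelial and pericyte genes, 9 rose and none fell (median 0.48). Kdr, the main VEGF receptor of endothelium (chr5:75932827-75978458, GRCm38), had 18.2, 11.4, 32.6 and 20.6 CPM in highly proliferating and 5.26, 3.58, 13.6 and 6.24 in slow spots. It was over 2 times higher within each section, though CC080F1 replicate 1 slow spots exceeded CC075F1 replicate 2 highly proliferating spots (1.35 ± 0.12; edgeR adjusted p = 1.29e-05). The sialomucin Emcn, the junction protein Esam and the pericyte marker Rgs5 rose by 1.02 ± 0.13, 0.83 ± 0.09 and 0.84 ± 0.10, and Pecam1 stood at 0.48 ± 0.17 without passing the threshold (edgeR adjusted p = 0.0532). Mest, an imprinted gene of the hydrolase fold family and on no list, had the largest rise of all named genes, with 25.9, 16.2, 49.2 and 30 against 4.18, 5.62, 13.2 and 6.78 CPM, 3.4-fold in the fit (1.77 ± 0.15; edgeR adjusted p = 1.08e-05). The potassium channel subunit Kcne3 and the GTPase Gimap4 rose by 1.08 ± 0.15 and 1.15 ± 0.11.

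T and NK cell markers were low throughout but also higher in highly proliferating spots, for 10 of 18 tested genes, with none lower (median 0.63). The T cell receptor gene Trbc2 had 17.6, 25.0, 5.75 and 6.48 CPM in highly proliferating and 11.9, 8.91, 3.57 and 2.41 in slow spots, higher within each section (0.83 ± 0.15; edgeR adjusted p = 0.00173). Cd8a stood at 15.7, 9.42, 2.70 and 1.85 against 8.63, 4.02, 2.88 and 0.328, so CC080F1 replicate 1 did not share the direction (0.71 ± 0.22; edgeR adjusted p = 0.0327). The call of the Cd8a log2 fold change was lost without CC075F1 replicate 1, CC075F1 replicate 2 or CC080F1 replicate 2 (edgeR adjusted p = 0.147, 0.157 and 0.0698). Summed over the list, the level was 165, 206, 45.6 and 111 CPM against 111, 93.7, 39.7 and 67.0, and the section medians were 0.38, 0.81, 0.05 and 0.75. The cytotoxic genes Gzmb and Prf1 had log2 fold changes of 0.05 and -0.09 and did not pass the threshold.

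Interferon genes went both ways. Of 29 tested, 11 rose and 8 fell (median 0.22; 18 higher and 5 lower with library size alone). Cxcl9, the interferon-gamma induced chemokine for T cells, had 358, 366, 51.7 and 163 CPM in highly proliferating and 217, 117, 25.2 and 58.8 in slow spots. Within each class its level was higher in both CC075F1 sections than in either CC080F1 section, a difference that was not tested. Cxcl9 was higher in highly proliferating spots within each section (1.00 ± 0.10, edgeR adjusted p = 4.48e-05). The GTPase Iigp1 rose by 0.64 ± 0.09, while Rsad2 and Ifit3, genes typical of type I interferon, changed by -1.10 ± 0.15 and -0.73 ± 0.14. Of 7 MHC class II genes, 1 rose (7 with library size alone), and H2-Aa did not pass the threshold (0.19 ± 0.12; edgeR adjusted p = 0.274). Of 5 dendritic cell genes 1 rose, and of 2 B and plasma cell genes 1 rose (Ighm, 0.82 ± 0.15). Of 22 fibroblast and matrix genes 5 fell and none rose (median -0.18), Fn1 at -0.83 ± 0.09 and Dcn at -0.66 ± 0.09. This direction depended on the setting, with 6 higher and 4 lower under library size alone (median 0.05), 6 higher and 2 lower of 19 among spots with fewer host marker UMIs (0.18), and 5 higher and 3 lower of 21 with spots ranked by DNA replication genes (0.14).

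Because hypoxia genes were higher in slow spots, the classes were drawn again within 10 strata of the hypoxia list's share in each section. This was added after the difference in hypoxia had been seen. The redrawn classes kept 75.6%, 69.0%, 82.7% and 66.1% of the highly proliferating spots and 62.8%, 60.7%, 61.0% and 47.3% of the slow spots. With these partly different spots there were 1068 calls among 12097 genes, 471 higher (3.89%) and 597 lower (4.94%). The mitosis list was again higher, with 62 of 66 higher, none lower and a median of 0.50, and 35 of 57 replication genes were higher with a median of 0.29. Host lists were no longer higher: none of 18 T and NK genes was called (median -0.09), 4 of 17 endothelial genes were called lower and none higher (median -0.37), and Cxcl9 stood at -0.18 (edgeR adjusted p = 0.265). Of 21 monocyte and macrophage genes, 14 were then lower and none higher (median -0.28), and of 29 interferon genes 7 were lower and none higher (-0.17). Kdr and Mest had 0.09 and 0.15 and did not pass the threshold. Ribosomal protein genes were still lower for 64 of 80, at a smaller median of -0.17, and Hspa1a, Cdkn1a and Spp1 were still lower at -1.98, -0.41 and -0.59. Hypoxia itself was reduced but not removed, with a median of -0.19 and 5 of 21 genes called lower. These hypoxia values are a description, since the strata were cut on the share of the same list.

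**Figure D5:**
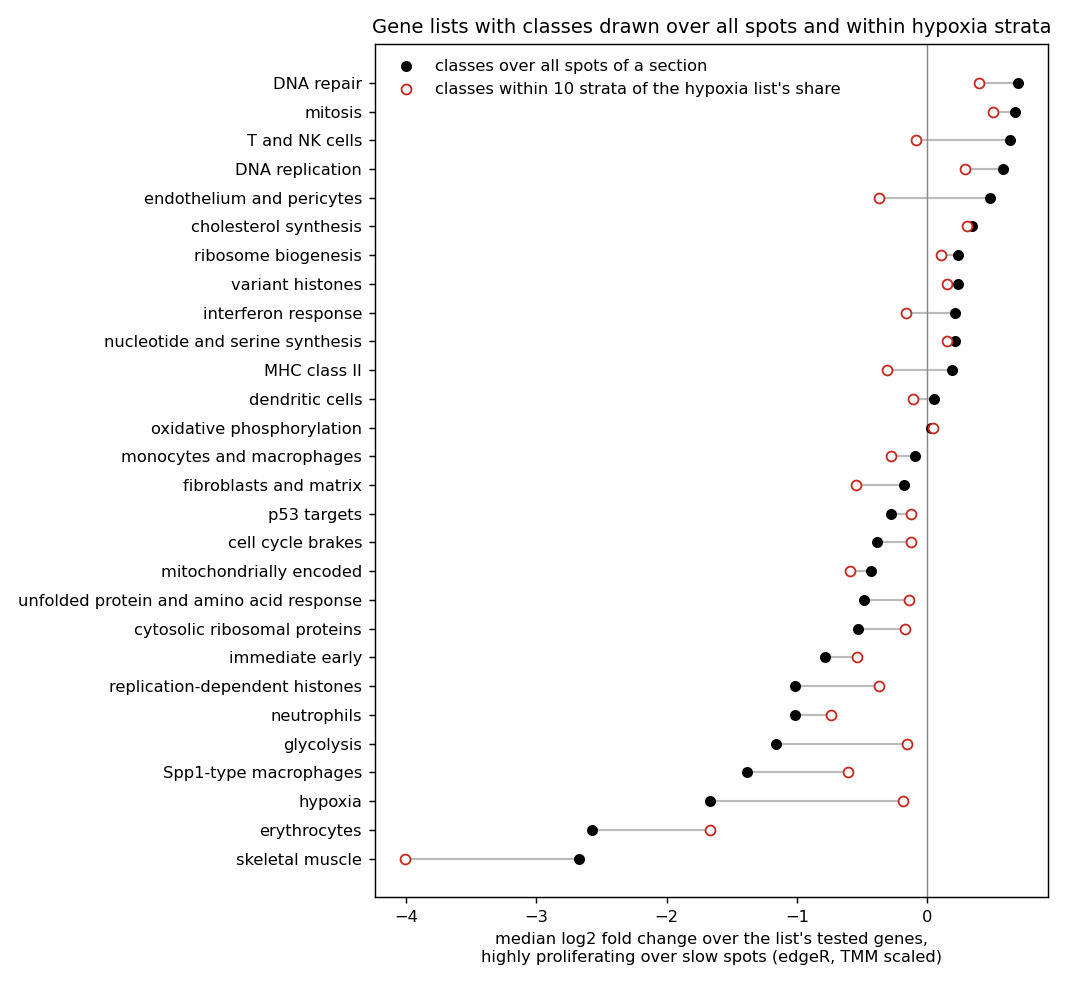
Median log2 fold change of highly proliferating over slow spots (x axis) over the tested genes of each list, with classes drawn over all spots of a section (black) and within 10 strata of the hypoxia list's share (red circles). The mitosis median moves from 0.68 to 0.50, while the T and NK median moves from 0.63 to -0.09 and the endothelial median from 0.48 to -0.37.

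When only the spots with fewer host marker UMIs were ranked (the lower part of each section, split at the median), the directions of the cell cycle, hypoxia, T cell and vessel lists were as before. There, 62 of 65 mitosis genes were higher (median 0.73), 19 of 21 hypoxia genes lower (-1.89), 9 of 14 T and NK genes higher (0.85) and 11 of 16 endothelial genes higher (0.67). Over all 11128 genes tested there, 1754 were called higher and 1903 lower. The T and NK and endothelial genes are themselves among the 109 host markers that chose these spots.

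Both ends of the range were set against the spots of neither class. These comparisons share their classes with the one above and with each other. Slow spots differed from the middle more broadly, with 1882 of 14063 genes higher (13.4%) and 1798 lower (12.8%), 26.2% in all. Highly proliferating spots differed for 460 of 14069 genes higher (3.27%) and 815 lower (5.79%), 9.06% in all. Without CC075F1 replicate 1, CC075F1 replicate 2 or CC080F1 replicate 2 the latter count was 711, 714 and 529, and without CC075F1 replicate 2 or CC080F1 replicate 2 the count for slow spots was 2331 and 2097. Bnip3 was 1.72 (log2) above the middle in slow spots and 1.5 below it in highly proliferating spots, Rrm2 0.73 below and 0.26 above, and Kdr 0.95 below and 0.39 above. The mitosis list was lower in slow spots for 62 of 66 genes (median -0.44) and higher in highly proliferating spots for 58 of 66 (0.24). The larger distance from the middle was on the other side for Hspa1a (-3.19 in highly proliferating and 2.58 in slow spots), Chac1 (-1.16 and 0.88), Cox6a2 (-1.53 and 1.27) and Gadd45a (-1.05 and 0.99), among others. It was so too for the mitochondrially encoded genes, lower in highly proliferating spots for 12 of 13 (median -0.35) against 5 higher and 2 lower in slow spots (0.08), and the red cell genes, lower in highly proliferating spots for 4 of 4 (-2.40) and higher in slow spots for 3 of 5 (0.25). The differences between these pairs of medians were not tested.

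Ranking the spots by the DNA replication list instead of the 8 genes drew partly the same spots. Of the highly proliferating spots, 24.8%, 30.1%, 18.4% and 32.3% were also in the top 10% by replication genes, and of the slow spots 42.9%, 50.3%, 44.4% and 48.9% were in the lowest 10%. With these other classes, 59 of 66 mitosis genes were higher and 1 lower (median 0.53), 19 of 21 hypoxia genes lower (-2.02), and 15 of 18 T and NK genes higher (0.96). Over all 12019 genes tested with these classes, 2373 were called higher and 2510 lower.

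Between the host genotypes, few differences in the contrast could be shown with 2 sections each. The edgeR test of the difference called 4 of 12012 genes (0.0333%, all toward a stronger fall in CC075F1, 0% the other way), and 361 had an unadjusted p under 0.05. DESeq2's Wald test called 0, with 47 under an unadjusted p of 0.05. The 4 genes were Acta1, Ttn, Mb and Myl1, all of skeletal muscle. Acta1 had 0, 7.92, 9.63 and 0.185 CPM in highly proliferating and 0.135, 226, 11.4 and 0.109 in slow spots, so a single class of a single section, the slow spots of CC075F1 replicate 2, held nearly all of it. The whole muscle list fell for 6 of 7 genes with a median of -2.67, and without that section its median was 0.18. Summed, the list stood at 18.3, 28.2, 40.1 and 9.24 CPM in highly proliferating and 16.6, 631, 44.2 and 7.76 in slow spots. Of 2 keratinocyte genes 1 fell, and none of 2 adipocyte genes or of the 1 epithelial gene tested (Cdh1, 0.96) was called. Hemoglobin genes, which mark red blood cells, fell for 4 of 4 genes (median -2.57; section medians -1.68, -4.0, -1.0 and -3.08); Hba-a1 and Hba-a2 are near-identical and their counts could be divided between them.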

How the data were processed

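The authors aligned the reads with Space Ranger 1.3.1 to GRCm38 with GENCODE vM23 and deposited raw UMI counts per gene and spot under tissue, with no normalization, and the grid position of each spot. Sections totalled 82594649 to 146460975 UMIs, and the total bounds the precision of low genes. Here counts were summed over the spots of each class and section, the 8 rule genes left out, and fitted in edgeR 4.0.16 (R 4.3.3; filterByExpr, TMM, quasi-likelihood) with the section as block and Benjamini-Hochberg adjustment at 0.05. Spots of a section are not replicates, and n is 4 sections. Deviations of a section's classes from the class means correlated at 0.56 to 0.76 over 12012 genes, so sections paired the sums. limma-voom (3.58.1) and DESeq2 (1.42.0) were alternatives. Gene positions came from GENCODE vM21, also on GRCm38. List results are counts and medians, with no set test.

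Named genes were the 15 largest rises and 15 largest falls among called genes with a mean of at least 10 CPM and the same sign in 4 sections, up to 4 per list by size, a fixed set, and genes called for a strain difference. Exceptions within a list were named after their values were seen. The members and lists were chosen with earlier results of these data known. Mx1 was not analysed here, and some items are not reported here.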

Additional observations from a re-analysis of the deposited data

Results flagged for a closer look

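Among the section values of the lists and named genes, 4 of 90 items examined had a section far from the others by Dixon's ratio of gap to range. Chance gives such a mark to about 1 in 20 groups, a rate close to that of 4 in 90. The skeletal muscle list had a ratio of 0.857, with medians of -0.44, -4.82, -0.06 and 0.29, CC075F1 replicate 2 standing apart. That section also held 23 slow spots rich in muscle, skin and fat markers. The epithelial list, with only Cdh1 tested, had a ratio of 0.934, the log2 ratio being 1.89 in CC080F1 replicate 1 and 0.56 to 0.65 in the other sections. The variant histone list had a ratio of 0.837, at 0.14 in CC080F1 replicate 1 and 0.23 to 0.24 elsewhere. Rad54l had a ratio of 0.849, at 1.42 in CC080F1 replicate 2 and 0.78 to 0.88 elsewhere.

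The hosts moved in opposite directions in 2 cases. Both CC075F1 sections had dendritic cell medians below 0 (-0.06 and -0.08) and both CC080F1 sections above it (0.19 and 0.19), the means differing by -0.261; this difference was not tested. H2-Aa, an MHC class II gene, stood at -0.13 and -0.14 where the host was CC075F1 and at 0.36 and 0.75 where it was CC080F1. The means differed by -0.686, and the edgeR test of the difference in the fit gave an adjusted p of 0.623.

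The edgeR test called a strain difference for Acta1 (-4.82), Ttn (-5.01), Mb (-4.58) and Myl1 (-4.22; log2 change in CC075F1 minus that in CC080F1). All 4 are muscle genes, and their UMIs came mainly from slow spots of CC075F1 replicate 2.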

How the results depend on the processing

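Among 2680 recomputed values of the 129 named genes, 18 had the opposite sign with the gene called in the comparison or under the alternative; changes of sign in genes called in neither are not counted. Among 665 list medians, 7 had the opposite sign for a list with a share of 0.5 or more of its tested genes called one way. The difference between highly proliferating and slow spots had 2126 calls by DESeq2's Wald test (947 higher, 1179 lower), 2460 (1099 higher) when spots were thinned to 5000 UMIs before ranking, 1068 (471 and 597) within hypoxia strata, and 4667 higher and 822 lower with library size alone. Leaving out 1 section gave 2228 to 3373 calls (966 to 1564 higher, 1262 to 1809 lower). Highly proliferating against middle spots gave 2122 calls (1672 higher, 450 lower) with library size alone, 306 higher and 1309 lower without a filter on low counts, and 529 to 1422 (148 to 556 higher, 381 to 866 lower) with 1 section left out. Slow against middle spots gave 875 higher and 4481 lower with library size alone, and 2097 to 3160 (1157 to 1663 higher, 940 to 1513 lower) with 1 section left out. The strain difference gave 0 calls by DESeq2, 1 by limma-voom, 16 with library size alone, 82 without a filter, and 5 to 73 with 1 section left out, where a strain with 1 section is assumed to vary like the other. The log2 difference around the classes was 0.50 for 5% and 0.14 for 20% classes. The causes were not tested.

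Without the pairing of a section's classes (no replicate block), the calls were 304 (109 higher, 195 lower), and 0 for highly proliferating (0 higher, 0 lower; 316 at an unadjusted p under 0.05) and 0 for slow (0 higher, 0 lower; 1080) against middle spots in edgeR; 53 of the 129 named genes kept their result and 76 lost it. The replicate block by replicate number across strains gave 82 strain differences; the numbers do not pair tumors.

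By the same criteria these had the opposite sign within hypoxia strata: the T and NK (-0.088) and endothelial (-0.37) medians, Ccr2 (-0.031), Cd8a (-0.083), Cxcl9 (-0.18), Emcn (-0.18), Esam (-0.20), H2-Aa (-0.34), H3f3b (0.12), Iigp1 (-0.31), Mthfd1l (0.046), Nkg7 (-0.20), Rgs5 (-0.38), Serpina3g (-0.21) and Trbc2 (-0.16). Of lists outside the criterion, the interferon (-0.17), MHC class II (-0.31) and dendritic cell (-0.11) medians were below 0 there, and the monocyte median was 0.13 with library size alone. H3f3b was 0.014 with library size alone. The B cell median was -1.07 without a filter and -0.26 (without CC080F1 replicate 1) to 0.74 with 1 section left out. The muscle median was 0.57 in host-poor spots, 0.12 in interior spots and -3.29 to 0.18 (without CC075F1 replicate 2) with 1 section left out; Acta1 was 1.08 and 0.12 in the first and second of these, and the Ttn log2 fold change -3.37 to 0.34 (without CC075F1 replicate 2) with 1 section left out and 0.17 with classes from replication genes. Depth limits low genes: Cd8a had 0.328 to 15.7 CPM.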
